A study of Mus musculus with 2 samples.

Results

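Microexons, here internal exons of 3 to 27 nt annotated in protein-coding genes, were measured in mouse cerebral cortex, both those included in transcripts and those skipped. The annotation held 192755 internal exons of protein-coding genes, of which 2042 had a length of 3 to 27 nt. Members were chosen by read support: 511 microexons, in 442 genes, had 10 or more informative reads over both libraries. A read was informative when it held the exon with both its annotated ends (an including read) or joined the splice sites on either side of it directly (a skipping read). Inclusion is the percentage of informative reads that held the exon. Because the read counts chose the members, the number of reads behind each exon is a description only. A further 1045 annotated microexons had no informative read and 486 had 1 to 9.

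RNA of the left cerebral cortex was read as long complementary DNA, so that 1 read could show which exons were joined in a transcript. There were 2 libraries of 1 group, numbered as biological replicates 1 and 2, each made from 2 µg of RNA of B6CASTF1/J mice aged 18 to 20 months. B6CASTF1/J animals are the first generation of a cross between inbred B6 mice and castaneus mice, a subspecies. Both libraries carry the same donor entry, their labels give the sex as female in some fields and male in another, and no treatment, genotype or time was compared. The libraries held 871524 and 839150 reads, of which 774629 and 679147 lay on annotated genes, and 79.4% and 71.3% of the reads on mouse transcripts came from models with more than 1 exon. Markers of all 6 cortical cell classes examined were read, among them Slc17a7 of excitatory neurons at 1142 and 973 CPM, reads per 1000000 on annotated genes, and Gad1 of inhibitory neurons at 443 and 387. Other marker levels were 2370 and 2509 CPM for Aldoc of astrocytes and 1490 and 1269 for Mbp of oligodendrocytes. C1qa of microglia was at 103 and 98.7, and Cldn5 of endothelium at 265 and 172. The marker given for each class had the highest mean CPM of those examined. Some of the others had few reads, among them Slc32a1 of inhibitory neurons with 5 and 4 and Mog of oligodendrocytes with 2 and 1. Cx3cr1 of microglia had 0 and 7 reads, and Pecam1 of endothelium 10 and 8. Of genes that mark neighbouring tissue, the choroid plexus genes Folr1 and Otx2 were at 0 reads in both libraries and Ttr had 18 and 5 reads (23.2 and 7.36 CPM). The striatal genes Drd1 (31.0 and 17.7 CPM), Adora2a (11.6 and 2.94 CPM) and Ppp1r1b (378 and 350 CPM) were read.

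Very short exons are difficult for the spliceosome to define, because the factors that recognise their ends have little room between them. Many microexons are spliced in mainly in neurons, under the control of the serine/arginine-rich protein encoded by Srrm4 and of other neuronal RNA-binding proteins, and many keep the reading frame and add a few residues to the surface of a protein. Genes of synaptic vesicle traffic, the cytoskeleton and cell adhesion are known to hold many of them.

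The sequences below show what such an exon looks like in the transcript. The exon is in capitals and the 20 nt on either side, taken from the neighbouring exons of a GENCODE M21 transcript, are in lower case, on mm10 (GRCm38). The first 7 were included in nearly all reads. They are shown because they span 15 to 25 nt, and because the pair of Amph exons lie next to each other in the transcript.
Aplp1, 24 nt, chr7:30436179-30436202, minus strand: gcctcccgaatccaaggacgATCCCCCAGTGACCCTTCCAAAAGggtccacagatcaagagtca
Selenow, 25 nt, chr7:15920449-15920473, minus strand: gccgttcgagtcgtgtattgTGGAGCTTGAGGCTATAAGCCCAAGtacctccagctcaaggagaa
Amph, 24 nt, chr13:19116237-19116260, plus strand: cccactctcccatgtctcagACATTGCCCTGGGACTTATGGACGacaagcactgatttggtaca
Amph, 24 nt, chr13:19118152-19118175, plus strand: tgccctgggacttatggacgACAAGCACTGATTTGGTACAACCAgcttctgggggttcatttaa
Mef2c, 24 nt, chr13:83654598-83654621, plus strand: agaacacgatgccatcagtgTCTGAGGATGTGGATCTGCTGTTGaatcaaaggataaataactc
Snap91, 15 nt, chr9:86798830-86798844, minus strand: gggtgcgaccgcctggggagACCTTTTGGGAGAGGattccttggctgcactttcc
Abi1, 15 nt, chr2:22963214-22963228, minus strand: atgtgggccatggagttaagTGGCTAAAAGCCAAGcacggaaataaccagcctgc
The next 7 were included in part of the reads, or share both flanks with an exon that was. They are shown because the pairs of Kif1a, Dnm2 and Atp6v0a1 exons are alternatives between identical flanks.
Nckap1, 18 nt, chr2:80571213-80571230, minus strand: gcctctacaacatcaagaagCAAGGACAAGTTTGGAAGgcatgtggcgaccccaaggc
Kif1a, 27 nt, chr1:93034546-93034572, minus strand: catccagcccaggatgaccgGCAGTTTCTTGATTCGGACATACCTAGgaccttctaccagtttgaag
Kif1a, 24 nt, chr1:93026832-93026855, minus strand: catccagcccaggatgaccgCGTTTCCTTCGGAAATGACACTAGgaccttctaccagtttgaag
Dnm2, 12 nt, chr9:21489910-21489921, plus strand: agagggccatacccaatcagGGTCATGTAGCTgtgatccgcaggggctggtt
Dnm2, 12 nt, chr9:21490658-21490669, plus strand: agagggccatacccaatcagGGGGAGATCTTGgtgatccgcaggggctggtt
Atp6v0a1, 18 nt, chr11:101049459-101049476, plus strand: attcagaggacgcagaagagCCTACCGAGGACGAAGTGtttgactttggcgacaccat
Atp6v0a1, 18 nt, chr11:101054831-101054848, plus strand: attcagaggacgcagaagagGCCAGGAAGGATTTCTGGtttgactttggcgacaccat
The last 8 had no including read, and are shown because the shortest of all are among them.
Clasp1, 3 nt, chr1:118547656-118547658, plus strand: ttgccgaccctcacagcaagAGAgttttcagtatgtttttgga
Cpne9, 3 nt, chr6:113284205-113284207, plus strand: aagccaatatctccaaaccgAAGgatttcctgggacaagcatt
Sept7, 5 nt, chr9:25264203-25264207, plus strand: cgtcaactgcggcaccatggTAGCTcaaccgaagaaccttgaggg
Sept7, 5 nt, chr9:25265302-25265306, plus strand: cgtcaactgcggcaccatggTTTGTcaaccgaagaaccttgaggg
Nsmf, 6 nt, chr2:25057965-25057970, plus strand: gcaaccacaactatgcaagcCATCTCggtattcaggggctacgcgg
Apbb1, 6 nt, chr7:105565946-105565951, minus strand: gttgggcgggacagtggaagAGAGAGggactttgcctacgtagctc
Sh3glb2, 15 nt, chr2:30346059-30346073, minus strand: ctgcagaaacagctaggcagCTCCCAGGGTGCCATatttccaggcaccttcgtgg
Hnrnpk, 16 nt, chr13:58393853-58393868, minus strand: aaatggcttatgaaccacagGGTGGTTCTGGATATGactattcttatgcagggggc

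Microexons fell into classes unlike those of longer exons. Of the 511, 256 (50.1%) were included at 95% or more, 107 (20.9%) lay between 5% and 95%, and 148 (29.0%) were included at 5% or less. As many as 219 had no skipping read and 134 had no including read. The median inclusion was 95.3% pooled, and 97.5% and 97.0% in replicates 1 and 2. Of 3727 exons of 28 to 51 nt with enough reads, 83.3% were in the high class, 10.8% between and 5.85% in the low class. Of 78202 exons over 51 nt the shares were 93.3%, 4.24% and 2.47%. The share in the low class was thus higher among microexons than in either longer class, and so was the share between the limits. Length within the microexons mattered for these shares. Of 94 microexons of 3 to 17 nt, 4 were high, 4 between and 86 low, and 84 had no including read. Of 417 of 18 to 27 nt, 252 were high, 103 between and 62 low. These shares are over exons, which are not replicates, and no test was made of them.

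**Figure D1:**
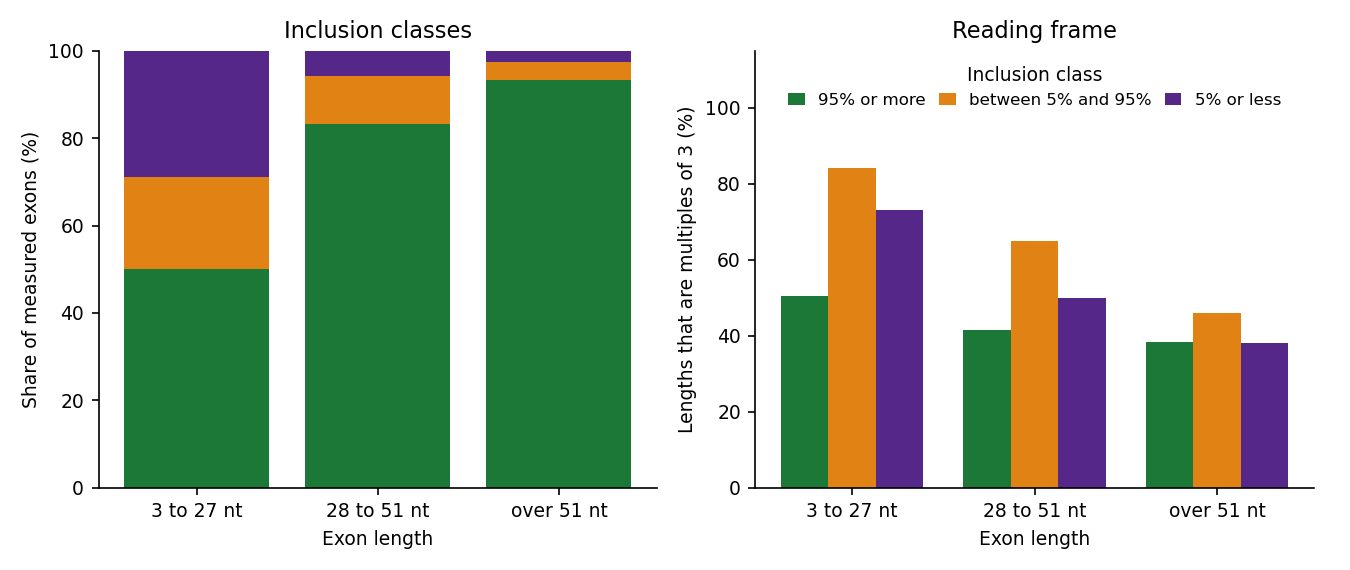
Left, share of measured internal exons (vertical axis, %) in each inclusion class for 3 ranges of exon length, with both libraries pooled. Right, share of exons in each class whose length is a multiple of 3 (%). Of microexons, 50.1% were included at 95% or more, against 93.3% of exons over 51 nt, and 84.1% of those between the limits had a length that is a multiple of 3.

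A length that is a multiple of 3 leaves the reading frame downstream as it was. It was found in 327 of 511 microexons (64.0%), against 44.6% of exons of 28 to 51 nt and 38.6% of longer ones. Among microexons the share was 84.1% for those between 5% and 95%, 73.0% for those at 5% or less and 50.4% for those at 95% or more. Longer exons had the same order of the class between the limits over the high class, at 65.0% against 41.6% for 28 to 51 nt and 46.0% against 38.3% over 51 nt. Restricted to the 466 microexons that lie within coding sequence, the shares were 87.5% (84 of 96), 80.6% (104 of 129) and 50.6% (122 of 241) for the between, low and high classes. Of the others, 12 microexons lay in a 5′ UTR, 1 in a 3′ UTR, 17 held both coding sequence and UTR, and 15 were only in transcripts without coding sequence. The exons ended in G in 405 of 511 (79.3%) and in AG in 260 (50.9%), and their median GC content was 46.7%.

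Inclusion differed steeply by length within the measured microexons. None of the 47 measured microexons of 3 to 11 nt had an including read, against 4798 skipping reads. In these totals over exons a read is counted at every exon that it passes, so the reads that skip both Sept7 exons are counted at each. Including reads were found for 3 of 21 microexons of 12 to 14 nt, 7 of 26 of 15 to 17 nt, 34 of 55 of 18 to 20 nt, 87 of 103 of 21 to 23 nt and 246 of 259 of 24 to 27 nt. The median inclusion was 0% in each range up to 17 nt, 69.7% at 18 to 20 nt, 99.2% at 21 to 23 nt and 100% at 24 to 27 nt. The shortest exons with an including read were 12 nt long. Both libraries showed this: below 12 nt each had 0 including reads, and at 24 to 27 nt they had 14037 and 11863. Members under 12 nt reached the read minimum through skipping reads alone, so their 0% follows in part from how members were chosen. Whether the 0 for exons under 12 nt reflects the RNA or the placing of such short exons in a read was not tested.

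**Figure D2:**
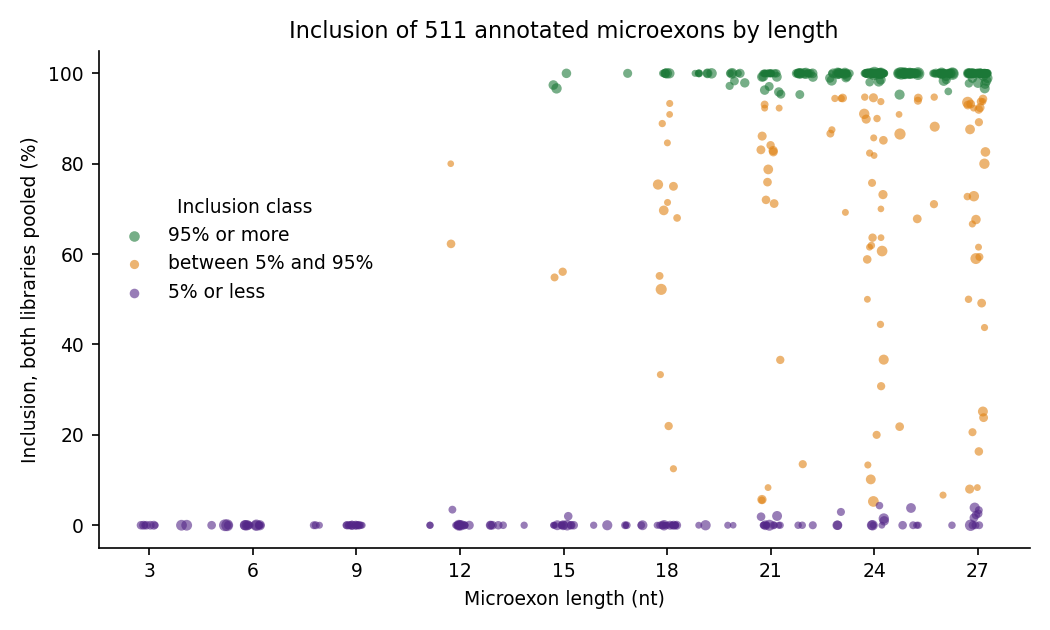
Each point is 1 of the 511 microexons, with its length (horizontal axis, nt, spread slightly sideways so that points can be told apart) and its inclusion pooled over both libraries (vertical axis, %). Colour gives the inclusion class and larger points have more informative reads. All points at 3 to 11 nt lie at 0%, and most points at 24 to 27 nt lie at or near 100%.

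Some reads passed a microexon in another way, which the rule does not count. They joined 1 of its flanking splice sites as annotated, but the other end of the intron lay up to 27 nt inside the gap. A few bases were thus added to a neighbouring exon. The intron as a whole is not annotated, and whether its shifted end is an annotated site by itself was not examined. There were 3988 such reads over all members, 2072 in replicate 1 and 1916 in replicate 2. They made up 28.1% of the reads at microexons of 3 to 17 nt (3114 reads beside 579 including and 7387 skipping) and 2.09% at those of 18 to 27 nt. In the range of 15 to 17 nt they were 55.1% of reads. At 3 to 11 nt they were 3.77%.

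**Figure D3:**
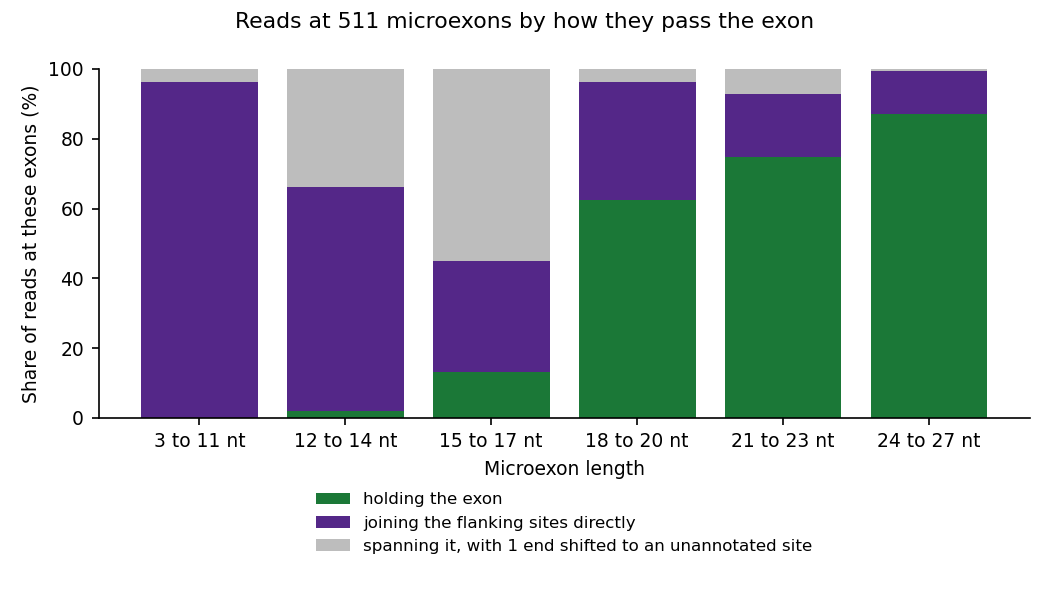
Bars give the share of reads (vertical axis, %) for 6 ranges of microexon length (horizontal axis), both libraries pooled. Reads held the exon, joined its flanking sites directly or spanned it by an unannotated intron with 1 shifted end. Reads of the last kind were 55.1% at 15 to 17 nt and 0.494% at 24 to 27 nt.

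A few genes held most of these reads. At the 16 nt exon of Hnrnpk, which encodes an RNA-binding protein, there were 0 including and 18 skipping reads, but 498 and 340 reads in replicates 1 and 2 added exactly 16 nt to a neighbouring exon. The 15 nt exon of Sh3glb2, which encodes an endophilin of membrane traffic, had 0 including and 26 skipping reads beside 346 and 300 reads that added 16 nt. At the 12 nt exon of the same gene, 1 including and 28 skipping reads stood beside 270 and 243 reads with 4 nt added. The number of bases added equalled the exon's length at Hnrnpk and not at either exon of Sh3glb2. For the 21 nt exon of Camta2, a calmodulin-binding transcription activator, 183 and 230 reads added 20 nt. Ergic3, a protein of the early secretory pathway, had 138 skipping reads at its 15 nt exon and 278 reads that added 4 nt. At the 15 nt exon of Dctn1, the large subunit of dynactin, 102 and 108 reads added 17 nt. The deposited files hold no read sequences, so whether these reads carry the microexon's bases was not tested.

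Other reads used an annotated intron that ended close by. At the 6 nt exon of Apbb1, which encodes an adaptor protein that binds the amyloid precursor protein, 0 reads included the exon AGAGAG and 121 skipped it, while 596 and 438 reads used an annotated splice site that adds the 6 bases CAACAG. Emc1, a subunit of the membrane insertion complex of the endoplasmic reticulum, had a 9 nt exon with 0 including and 21 skipping reads beside 61 and 52 reads with 9 bases added at an annotated site. Those added bases were CGACACCAG against CGATTCAAG in the exon, so both began with CGA and ended with AG.

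Exons left out by the read minimum showed the same kind of reads. Among annotated microexons with fewer than 10 informative reads, 60 had 10 or more reads with a shifted end, 8788 reads in all. A read spanning several such exons is counted at each. Of the 60, 40 were shorter than 18 nt. Nrgn, which encodes the calmodulin-binding postsynaptic protein neurogranin, had 5 informative reads at an 18 nt exon beside 2045 and 1867 reads with a shifted end. Uchl1, a neuronal deubiquitinating enzyme, had 4 informative reads at a 12 nt exon beside 318 and 242. They were named after their values were seen, as were the genes of the preceding paragraphs on shifted ends.

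At the read minimum itself the classes looked as follows. Of 17 microexons with exactly 10 informative reads, 7 were at 95% or more, 2 between and 8 at 5% or less. Of 23 just below it, with 9 reads, the numbers were 10, 7 and 6.

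Of the 10 microexons with the most informative reads, 8 were in the high class and the other 2 were the 5 nt exons of Sept7, described further on. The highest number of informative reads was at the 24 nt exon of Aplp1, an amyloid precursor-like protein, with 1820 of 1821 reads including it in replicate 1 and 1540 of 1540 in replicate 2. Bsg, whose product basigin carries lactate transporters to the cell surface, had its 25 nt exon in 965 of 965 and 783 of 784 reads. Selenow encodes selenoprotein W, and its 25 nt exon was in all of 863 and 746 reads. Each of these 3 exons thus lay at 99.9% or 100% in either library. Ptgds, the prostaglandin D synthase, included its 26 nt exon in 922 of 923 and 524 of 524 reads. Gpx4, a glutathione peroxidase that acts on membrane lipids, did so at 25 nt in all of 406 and 307 reads, and Morf4l1, a chromatin protein, at 26 nt in all of 307 and 289. The lengths of 25 and 26 nt are no multiples of 3. At Bsg, Selenow, Gpx4 and Morf4l1 the exon lies within coding sequence, so a transcript without it would change its reading frame after it. The Ptgds exon holds both coding sequence and UTR.

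Ribosomal protein gene Rpl41 carried a 23 nt exon present in all of 342 and 242 reads, and a 25 nt exon present in all of 287 and 204. Of 491 reads that spanned both, 490 held both and 1 held only the 23 nt exon. A shorter form of the 25 nt exon, 23 nt long and sharing 1 of its ends, had 10 reads of its own. Those reads count neither for nor against the 25 nt exon. Sirpa, the receptor for Cd47 on myeloid cells and neurons, had a 25 nt exon in all of 226 and 245 reads. Ppp1r1b encodes the dopamine-regulated phosphatase inhibitor DARPP-32, and its 23 nt exon was in all of 255 and 207 reads. The 22 nt exon of Palm, a lipid-anchored membrane protein, was in all of 253 and 201, and the 24 nt exon of Sh3glb2 in all of 321 and 266. The 12 deepest exons of the high class thus all lay at 99.9% or above when pooled.

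Microexons of under 18 nt in the high class were few. Snap91, the clathrin assembly protein AP180, included its 15 nt exon in 100 of 104 and 103 of 106 informative reads (96.2% and 97.2%). Of 216 reads that spanned this exon and the 6 nt exon of the gene, 189 held the 15 nt exon and 27 held neither. At the 15 nt exon, 12 reads with a shifted end added 4 nt. Abi1, a component of the actin-regulating WAVE complex, had its 15 nt exon in all of 53 and 53 reads. Sptan1, the spectrin of the neuronal membrane skeleton, included a 15 nt exon in 56 of 56 and 57 of 60 reads. The fourth was the 17 nt exon of Sugt1, a co-chaperone, in all of 35 and 39 reads. Named after its values were seen, Sugt1 had the only length of the 4 that is no multiple of 3. At 12 of the 18 microexons of 15 nt there was no including read.

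Of the deepest microexons between 10% and 90%, 19 are described, and 17 of them had a length that is a multiple of 3. Nckap1, a core subunit of the WAVE complex, included its 18 nt exon in 104 of 204 reads in replicate 1 and 98 of 183 in replicate 2. The mean was 52.3% ± 1.82 (SD, n = 2), and pooled inclusion was 52.2% with a 95% Wilson interval of 47.2% to 57.1%, so the libraries differed by less than the counting error. Ptpra, a receptor tyrosine phosphatase, included a 27 nt exon in 96 of 173 (55.5%) and 107 of 171 reads (62.6%). All the reads with the Ptpra exon came from models that match no annotated transcript in full, since 0 of 203 were counted in annotated transcripts, against 177 of 202 for Nckap1.

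Pooled inclusion above that of the Ptpra exon was measured for exons of Cd47, Anxa6, Atp6v0a1, Tpd52 and Tpd52l2, among others. Cd47, a surface protein that restrains phagocytosis, had its 25 nt exon in 197 of 223 (88.3%) and 177 of 209 reads (84.7%). Anxa6, a calcium-dependent membrane-binding annexin, included an 18 nt exon at 74.3% and 76.7%. Atp6v0a1, a membrane subunit of the vacuolar proton pump, did so at 65.6% and 73.8% for an 18 nt exon. Tpd52 and Tpd52l2, related proteins of vesicle traffic, carried 27 nt exons at 81.1% and 78.3% and at 70.9% and 63.8%. In each of these the replicates lay within 10 points of each other.

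Pooled inclusion below that of the Nckap1 exon was seen for 3 of the 19. Mark3, a kinase that acts on microtubule-associated proteins, included its 27 nt exon in 17 of 75 (22.7%) and 20 of 72 reads (27.8%). Sbf1, an inactive member of the myotubularin phosphatases, included a 24 nt exon in 4 of 55 and 10 of 83 reads, 10.1% pooled with an interval of 6.14% to 16.3%. Nrbp1, a pseudokinase, stood at 42 of 94 (44.7%) and 17 of 67 (25.4%). This was the widest gap between the libraries among the 19. Ddhd1, a phospholipase, followed with 40 of 44 (90.9%) and 22 of 28 (78.6%), and then Pls3, an actin-bundling plastin, with 93 of 119 (78.2%) and 65 of 98 (66.3%). The remaining exons of the 19, in Hnrnpc, Trappc9, Tmem184b, Ahi1, Mars, Mast2 and Gopc, had pooled inclusion of 73.2% (Mars) to 89.9% (Gopc). The Hnrnpc exon of 26 nt lies in the 5′ UTR.

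**Figure D4:**
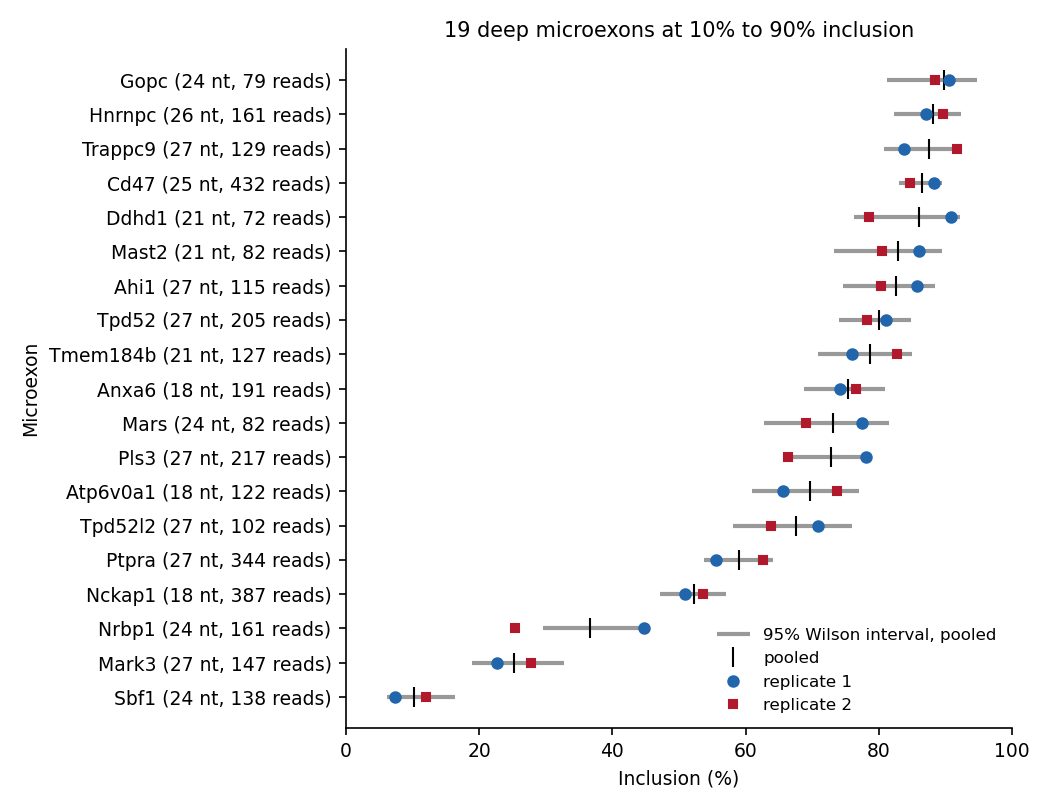
The 19 described microexons with the most informative reads among those included at 10% to 90%, with inclusion (horizontal axis, %) in replicate 1 (circles), in replicate 2 (squares) and pooled (tick) with its 95% Wilson interval (grey bar). Nckap1 lies at 52.2% with its libraries close together, and Nrbp1 has the widest gap, 44.7% against 25.4%.

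Microexons with no or few including reads had deep coverage too. Sept7, a septin of the membrane-associated cytoskeleton, has 2 annotated 5 nt exons between the same flanks. Each had 0 including reads of 413 and 356, which by counting error alone allows a pooled share of up to 0.390%. That limit assumes that a 5 nt exon would be placed in a read that carries it, which was not tested. None of the 47 members of 3 to 11 nt had an including read. Nsmf, which carries signals from NMDA receptors to the nucleus, had 0 of 288 and 243 reads at a 6 nt exon. Mpc1, of the mitochondrial pyruvate carrier, had 0 of 306 and 0 of 304 pooled reads at a pair of 4 nt exons. Nsfl1c, a cofactor of a protein-unfolding ATPase, had 0 of 232 at 6 nt, and Vps29, of the retromer complex, 0 of 321 at 12 nt. Some longer exons had no including read either. Kif5c, a neuronal kinesin heavy chain, had 0 of 239 and 279 reads at a 27 nt exon, and Tmed2, a cargo receptor of the early secretory pathway, 0 of 203 and 158 at 21 nt. The Hdhd2 exon of 15 nt, in a 5′ UTR, had 0 of 240 reads and 60 reads at an annotated site nearby.

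Every one of the 27 members of 3 to 6 nt had 0 including reads. Those not named so far lie in Ap2m1, Asap1, Clasp1, Clasp2, Clip1, Cpne9, Cyth2, Git2, Iffo1, Itih3, Map3k10, Map4k5, a further exon of Nsmf, Pacsin2, Phb2, Psap, Rims1, Snap91, Spp1 and Taf1. Their informative reads ranged from 10 (Nsmf and Taf1) to 212 (Snap91). The share that a count of 0 allows, by counting error alone, thus ran from 30.0% down to 1.42%. These limits too assume that so short an exon would be placed in a read that carries it. Cpne9, a copine, is annotated with a 3 nt exon and had 32 and 33 skipping reads. Clasp1, a microtubule plus-end protein, had 7 and 9 at a 3 nt exon. Cyth2, an exchange factor for ARF GTPases, had 68 skipping reads at a 3 nt exon beside 266 reads with another annotated end. The 5 nt exon of Psap had 54 skipping reads beside 229 with another annotated end.

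Whether the annotation holds a skipping form was set beside the classes, which come from the reads. A direct joining of the flanking sites is annotated for 262 of 511 microexons (51.3%). That share was 16.4% (42 of 256) in the high class, 86.0% (92 of 107) in the class between the limits and 86.5% (128 of 148) in the low class. For 20 microexons of the low class no annotated transcript joins the flanking sites, although the reads as placed did so. Both Sept7 exons, both Mpc1 exons, a pair of 9 nt exons of Spock2 with 73 skipping reads each, and the 3 nt exon of Cpne9 are among them. So is the 16 nt exon of Hnrnpk, with 18 skipping reads beside 838 with a shifted end. Over all classes, 18 microexons of 3 to 17 nt had skipping reads without annotated skipping. At that length 84 of 94 members had no including read. Whether these skipping reads lack the exon's bases was not tested. In the class between the limits 15 had no annotated skipping, of which 5 had 3 or more skipping reads, among them the 27 nt exon of Gripap1, which encodes a protein of AMPA receptor traffic. It had 53 including and 4 skipping reads. Reads in annotated transcripts made up 71.7% of the 35007 including reads and 51.6% of the 13849 skipping reads.

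Long reads also show whether microexons of the same gene are used together. Members numbered 2 or more in 57 genes, with 126 exons, and the most, 4, in Clasp1 and Dctn1. The 24 nt exons of Amph, which encodes the endocytic protein amphiphysin, are neighbours, and of 251 reads spanning both, 250 held both and 1 held neither. Ptk2, the focal adhesion kinase, carried an 18 and a 21 nt exon. Of 68 spanning reads, 48 held both, 0 only the 18 nt exon, 8 only the 21 nt exon and 12 neither, with 24 reads with both in each library. An 18 nt exon without its 21 nt neighbour was therefore not seen at this depth.

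Other pairs are alternatives between identical flanks. For the 27 and 24 nt exons of Kif1a, a kinesin that carries synaptic vesicle precursors, 0 of 46 spanning reads held both, 7 held the 27 nt exon, 12 the 24 nt exon and 27 neither. The counts with neither were 16 and 11 in replicates 1 and 2. Atp6v0a1 has 2 exons of 18 nt between the same flanks, and 85 of 135 spanning reads held the first, 0 the second and 50 neither. For the 12 nt exons of Dnm2, a dynamin that cuts endocytic vesicles from the membrane, 32 of 52 spanning reads held the second exon and 20 neither, while the first was in 0. Since 1 exon of the Atp6v0a1 pair and 1 of the Dnm2 pair was in no read, only the Kif1a pair bears on whether both are used together. The sequences printed above show that the members of each such pair differ in their letters while their flanks are the same. For Kif1a, inclusion by informative reads leaves out reads with the partner exon, so it differs from these shares. At the first Atp6v0a1 exon 37 reads skipped directly and 12 had a shifted end, so the 50 with neither are not all skipping reads.

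Where short exons follow each other, the inclusion of a single exon can hide their joint skipping. The second 21 nt exon of Dctn1 was included in 142 of 143 informative reads (99.3%), since reads that leave out several exons together do not join its own flanking sites. Of 58 reads that spanned both 21 nt exons, 11 held both, 2 only the second, 0 only the first and 45 neither. Of 184 reads that spanned the second 21 nt exon and the 15 nt exon, 139 held the 21 nt exon and 45 held neither. The 58 reads thus leave out most of the reads with the second 21 nt exon. With every spanning intron counted as skipping, the inclusion of this exon was 75.5%, and that of the 24 nt exon of Bin1, a relative of Amph, was 82.6% in place of 100%. Among the pairs spanned by the most reads, those of Apbb1 (989 reads), Sept7 (830), Nsmf (534) and Mpc1 (310) had neither exon in any read. Neither means here that no read held an exon with its annotated ends: at the 6 nt exon of Apbb1, 1034 reads ended at the other annotated site and 121 skipped directly. The 3 microexons of Sh3glb2 gave 579 of 581 reads with the 24 nt exon alone when set against the 15 nt exon, and 573 of 576 when set against the 12 nt exon. Reads with a shifted end count there as not holding the exon, and such reads numbered 646 at the 15 nt exon and 513 at the 12 nt exon, beside 26 and 28 that skipped directly. Whether they carry the exon's bases was not tested.

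Functional lists of genes known for neuronal short exons held 103 of the members, in 72 genes, with 34 in the high class, 32 between and 37 in the low class. Their median inclusion was 63.6%, against 95.3% over all 511 and 99.1% over the 408 microexons of other genes. Of those 408, 75 lay between the limits. Of the 37 low members in the lists 21 were under 15 nt, against 45 of 111 in other genes. Over all members, 3 of 68 microexons under 15 nt had an including read. The part of exon length in these medians was not tested. A length that is a multiple of 3 was found for 88 of the 103 and for 239 of the 408. The lists were made with earlier results of these data known, so these numbers describe the lists. Over all genes, 511 of 2042 annotated microexons were members.

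Endocytosis and vesicle traffic genes had 33 members of 58 annotated microexons, 17 high, 5 between and 11 low, with a median of 96.7%. The amphiphysin, AP180 and Sh3glb2 exons above are among them, as is a 15 nt exon of Itsn1, an endocytic scaffold, at 6 of 12 and 11 of 19 reads. Picalm, which helps to assemble clathrin coats, included a 24 nt exon in 14 of 26 (53.8%) and 14 of 18 reads (77.8%). Cytoskeleton and motor genes had 30 members of 69, 7 high, 10 between and 13 low, with a median of 32.1%. In Sptan1 an 18 nt exon was in all of 89 and 96 reads.

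Kinases, phosphatases and GTPase regulators had 17 members of 38, of which 10 lay between the limits, 3 above and 4 below, with a median of 82.4%. Git1, a scaffold that regulates ARF GTPases, included a 27 nt exon in 233 of 248 (94.0%) and 175 of 188 reads (93.1%). Mink1, a kinase of the Ste20 family, did so for a 24 nt exon at 89.2% and 92.7%. Mark2, a relative of Mark3, had 5 of 95 and 2 of 85 reads at a 27 nt exon. Ptk2b, a calcium-regulated relative of Ptk2, held a 25 nt exon in all of 198 and 176 reads. Src, the tyrosine kinase whose 18 nt exon marks its neuronal form, had that exon in 3 of 4 and 8 of 9 reads, with an interval of 57.8% to 95.4% on 84.6% pooled.

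Transcription, chromatin and RNA genes had 9 members of 19, 4 high, 2 between and 3 low, with a median of 94.6%. Mef2c, a transcription factor of activity-dependent gene expression, included a 24 nt exon in 130 of 133 and 91 of 92 reads. Its relatives Mef2a and Mef2d included their exons of 24 and 21 nt at 94.6% and 97.1% pooled. The 12 nt exon of Kdm1a, known as the neuronal exon of this histone demethylase, had 0 of 64 and 59 reads, which allows a pooled share of up to 2.44%. It had 0 reads with a shifted end. The limit covers counting error only, and including reads were found for 3 of the 21 microexons of 12 to 14 nt. Whether the 0 reflects the RNA or the placing of so short an exon in a read was not tested.

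Cell adhesion genes and receptor phosphatases had 8 members of 50 annotated microexons, 1 high, 3 between and 4 low, with a median of 21.9%. Adgrl1, a latrophilin, included an 18 nt exon in all of 32 and 48 reads. Agrn, which organises synapses through receptor clustering, had its 24 nt exon in 2 of 5 and 6 of 13 reads. Nrcam, a neuronal adhesion molecule, had 0 of 46 pooled reads at 12 nt and 0 of 21 at 18 nt. Its 12 nt exon also had 27 reads with another annotated end. Channels, receptors and scaffolds had 6 members of 29, 2 in each class, with a median of 65.9%. Dlg1, a synaptic scaffold, included a 21 nt exon in 20 of 27 (74.1%) and 22 of 32 reads (68.8%).

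The libraries were compared exon by exon with Fisher's exact test, two-sided, for all annotated internal exons with 20 or more informative reads in each library. Of 248 microexons tested, 0 passed an adjusted p of 0.05 (Benjamini-Hochberg over all 40676 exons), and so did 0 of the 40676 (0%). At an unadjusted p under 0.05 there were 2 microexons and 64 exons in all. These were the 24 nt exon of Nrbp1 (unadjusted p = 0.0134, adjusted p = 1, Fisher's exact test) and a 24 nt exon of Ttc7b, at 13 of 153 and 2 of 132 reads (unadjusted p = 0.0139, adjusted p = 1, Fisher's exact test). Only 88 of the 248 had reads of both kinds, so the test could give only a p of 1 for the others. Over the 47 tested microexons between 5% and 95%, the median difference between the libraries was 5.32 points, and the largest was 25.2 points for a 25 nt exon of Mfsd6 at 56.2% and 81.5%.

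**Figure D5:**
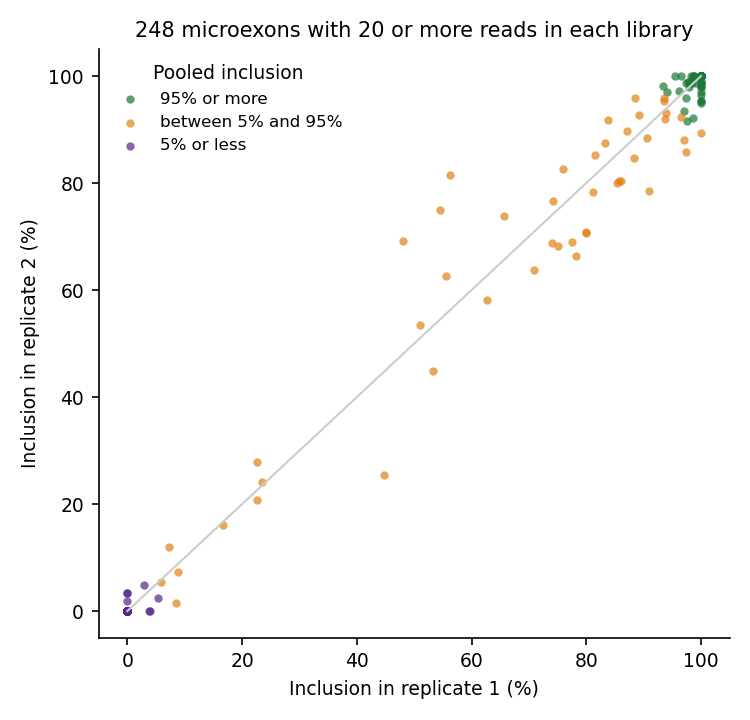
Inclusion in replicate 1 (horizontal axis, %) against replicate 2 (vertical axis, %) for the 248 microexons with 20 or more informative reads in each library, coloured by pooled inclusion class, with the line of equality. Points lie near the line, with the widest gap, 25.2 points, for Mfsd6 at 56.2% and 81.5%.

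Genes for splicing regulators of microexons were read at low to moderate levels, in CPM that are not divided by gene length. Srrm4 had 7 and 15 reads (9.04 and 22.1 CPM) and Srrm3, its relative, 20 and 34 (25.8 and 50.1 CPM). Ptbp1, a repressor of neuronal exons that is low in neurons, was at 14.2 and 10.3 CPM, and Ptbp2, its neuronal counterpart, at 89.1 and 83.9 CPM. Rbfox3, a splicing factor of mature neurons, was at 381 and 424 CPM, and Celf4 at 729 and 763 CPM. In bulk tissue fewer cells of a type and less RNA per cell cannot be told apart, and inclusion in a given cell type was not measured. The part of these levels in the inclusion of any microexon was not tested.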

How the data were processed

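For each of the 2 libraries the authors deposited whole-number read counts for each transcript model, together with the models' exons. The reads were aligned to mm10 and models named with GENCODE M21, per the deposited notes, and the exon files name TALON as their source. For the aligner, error correction, versions and filters, nothing is stated (not given in the sources used here). Models of spike-in RNAs (1.58% and 1.33% of reads) were left out.

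Exons and introns of GENCODE M21 transcripts of protein-coding genes defined the annotated internal exons. Reads of a model were added to every exon that it holds with both ends as annotated, and to every exon whose annotated flanking splice sites it joins by 1 intron. Members needed 10 informative reads pooled. Reads with a shifted end share 1 flanking site and lie up to 27 nt inside the other at an unannotated intron. Shares carry 95% Wilson intervals (statsmodels 0.14.6), and the limit for a count of 0 is 3 counts of the total. Intervals and limits cover counting error only. Nothing in the labels says that each library is a separate animal, so the spread between them may be technical.

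Fisher's exact test (scipy 1.17.1), two-sided, compared the libraries at 20 or more informative reads in each, with Benjamini-Hochberg adjustment over all exons at 0.05. Counting and test were tested on simulated data. CPM is relative to reads on annotated genes.

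Exons were named by rule. The rule took the 20 deepest at 10% to 90%, the 12 deepest at 95% or more, the 10 deepest at 5% or less, all called exons and all of 3 to 6 nt. It also took the 8 pairs spanned by most reads and up to 4 exons per functional list. Of these, 1 exon is not reported here. Exons named beside these, including those of the other pairs, Sugt1, Spock2, Gripap1, Ttc7b, Mfsd6, Picalm, Itsn1, Src, Mef2a and Mef2d, were named after their values were seen. The members and lists were chosen with earlier results of these data known. Alternatives changed the counting of skipping and including reads, the models used, the read minimum, the class limits and the libraries. The shifted-end alternative and the restriction to 18 to 27 nt were chosen after seeing the data. Sequences were read from the GENCODE M21 transcripts, and bases within introns were not used here.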

Additional observations from a re-analysis of the deposited data

How the results depend on the processing

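With any spanning intron taken as skipping, 177 microexons lay between 5% and 95% and 306 at 5% or less, with a median inclusion of 42.9%. With only spanning introns that end within 27 nt of the flanking sites, 231 were at 5% or less and the median was 77.2%. Annotated transcripts alone left 311 microexons, 35 between the limits and 83 at 5% or less, with a median of 100%. In that alternative fewer models are counted. A minimum of 20 reads left 71 between and 98 low, with a median of 98.0%, and a minimum of 5 gave a median of 94.1%. The median was 94.5% when both flanking introns had to be annotated and 95.9% without incomplete splice matches and genomic models. Counting reads with a shifted end as including gave 161 between the limits and a median of 96.8%. Exons of 18 to 27 nt alone gave 62 low and a median of 100%. Leaving out 1 library gave 94 to 98 low microexons and medians of 98.0% to 98.5%. Apart from the smaller number of models, exons or reads counted, the cause of these differences was not tested. The other counts of members and classes stayed within 1.5 times those of the report. Fisher's exact test between the libraries called 0 microexons in the report and in its 3 alternatives. At an unadjusted p under 0.05 there were 2 of 248 in the report, 2 of 337 at 10 reads in each library, 2 of 341 with any spanning intron as skipping and 0 of 149 with annotated transcripts only.

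Of 84 named microexons, 62 moved by no more than the spread between libraries with any spanning intron as skipping, and 51 of the 70 with reads in annotated transcripts did so there. Moves of 10 points or more came to 4 and 10 in those alternatives. With annotated transcripts only, Ptpra, Pls3, Tpd52, Trappc9, Sbf1 and Ddhd1 fell to 0%, Atp6v0a1 stood at 96.1%, Ahi1 at 100%, Dlg1 at 42.9% and Tpd52l2 at 22.0%. Without incomplete splice matches and genomic models Agrn stood at 62.5%, and without replicate 1 Nrbp1 stood at 25.4%. No paired analysis was possible because the series holds a single group. Depth limits exons with few reads most: 17 members rest on 10 reads, where a count of 0 allows a share of up to 30.0%.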
